A study of Bos grunniens with 18 samples.

Results

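BRDT, the testis member of the BET family of bromodomain proteins, was followed in yak (Bos grunniens) testis together with 8 other genes. The set was drawn up around the removal of histones from spermatid chromatin, with BRD2 and BRD3 as widely expressed relatives of BRDT. The 9 genes were taken by symbol from a table of 22183 genes, and they are BRDT, BRD2, BRD3, BRD7, CHD5, RNF8, EPC1, KAT5 and CDYL. All 9 had enough reads to be tested among 16742 genes. The genes were named for what they are known to do; the rule itself uses no measured value, but it was drawn up with earlier results of these data known. CHD3 and CHD4 were added as widely expressed relatives of CHD5.

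During spermiogenesis, the phase in which round spermatids become sperm, most histones are removed from DNA and replaced first by transition proteins and then by protamines. Work in mice places histone acetylation before this exchange. BRDT binds acetylated histone H4 and is needed for compaction, the remodeller CHD5 acts in the exchange, and RNF8 ubiquitinates histones. BET proteins read acetylated lysines through paired bromodomains. BRDT is made mainly in male germ cells, whereas BRD2 and BRD3 are made in most tissues. CHD5 belongs to the same subfamily of chromatin remodellers as CHD3 and CHD4, which occur in most cells.

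Testis tissue came from healthy male yaks of the same cooperative at 6 months, 18 months or 4 years of age, with 3 animals at each age and 1 ribosomal RNA-depleted library per animal. The groups differed in age alone as far as the labels say, and no treatment, mutation or transgene is recorded. A further label calls the 4-year samples infancy, the 6-month samples adolescence and the 18-month samples adulthood. The titles and the description of sampling give the ages used here. The tissue was a mixture of cell types, so fewer cells of a type and less RNA per cell cannot be told apart in any value below.

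Libraries held 22.95 to 33.12 M estimated counts. CPM below means counts per 1 M counts after scaling between libraries, and it is used to compare ages. FPKM, which also divides by transcript length, is the value the authors deposited and is used to compare genes. Summed CPM of 14 spermatocyte markers was 15.7 to 32.2 at 6 months, 763 to 2078 at 18 months and 1925 to 2123 at 4 years. For 12 round spermatid markers these ranges were 3.68 to 7.54, 214 to 2323 and 2069 to 2592, and 2 of the 12 were at 0 in every 6-month library. For 12 elongating spermatid markers they were 70.8 to 78.6, 504 to 6692 and 6734 to 9337. Most of the 6-month sum came from ODF2 and GAPDHS, which averaged 49.4 and 21.0 CPM at 6 months. The next highest of these markers, AKAP4, averaged 1.49 CPM there. The sums of 13 Sertoli markers ran the other way, at 8166 to 9699, 2036 to 5309 and 1760 to 1881, and so did those of 8 Leydig cell markers, at 14799 to 21309, 2564 to 5885 and 2460 to 4381. Sums of 10 spermatogonial markers were 257 to 343, 246 to 589 and 238 to 258. Sums of 13 peritubular and stromal markers were 3078 to 3894, 434 to 1736 and 431 to 440, and those of 9 leukocyte markers 244 to 454, 163 to 327 and 93.7 to 128. Sums of 8 endothelial markers were 358 to 371, 148 to 227 and 173 to 181. Means at 6 months were 4099 CPM for INHA and 3486 CPM for CLU (Sertoli) and 11277 CPM for INSL3 (Leydig). At 4 years against 6 months 2 Sertoli markers rose and 9 fell, and 1 Leydig marker rose and 7 fell. These counts were 1 and 10 for stromal, 1 and 7 for leukocyte, 1 and 7 for endothelial and 4 and 2 for spermatogonial markers. Of all tested genes, 36.7% were called higher and 37.2% lower there. The part of these shifts in the member genes' values was not tested.

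BRDT (ENSBTAG00000003724) was close to absent at 6 months and abundant afterwards. The 6-month libraries held 12, 23 and 8 BRDT counts, which is 0.507, 0.997 and 0.366 CPM. The 18-month libraries (replicates 1, 2 and 3) held 149, 34.4 and 89.5 CPM, and the 4-year libraries 125, 148 and 151 CPM. Every 18-month and 4-year library was above every 6-month library, and the 18-month animals spread over a wider range than the 4-year animals. BRDT averaged 141 ± 13.9 CPM at 4 years and 0.623 ± 0.331 CPM at 6 months (SD, n = 3 each), a log2 fold change of 7.81 ± 0.66 (SE, adjusted p = 4.08e-05). At 18 months against 6 months the log2 fold change was 7.18 ± 0.64 (adjusted p = 7.24e-05). Of the 16742 tested genes, 5.11% had a larger log2 fold change than BRDT at 4 years against 6 months.

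CHD5 (ENSBTAG00000040477), the remodeller, was already detected in every library at 6 months. It stood at 31.0, 35.4 and 28.3 CPM at 6 months, at 208, 35.4 and 80.4 CPM at 18 months (replicates 1, 2 and 3), and at 287, 294 and 263 CPM at 4 years. All 4-year libraries lay above all others, and 18-month replicate 2 lay within the 6-month range. CHD5 rose to 281 ± 16.0 CPM at 4 years, against 31.6 ± 3.58 CPM at 6 months (log2 3.15 ± 0.55, adjusted p = 0.000839). The difference between 18 and 6 months passed the test as well (log2 1.77 ± 0.52, adjusted p = 0.0165), but these groups overlapped. This call was lost without 6-month replicate 1 (log2 1.76, adjusted p = 0.0519) or 6-month replicate 3 (log2 1.71, adjusted p = 0.0574). The value was lowest without 18-month replicate 1 (log2 0.88, adjusted p = 0.0351) and highest without 18-month replicate 2 (log2 2.31, adjusted p = 0.000158), and the call was kept in both.

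**Figure D1:**
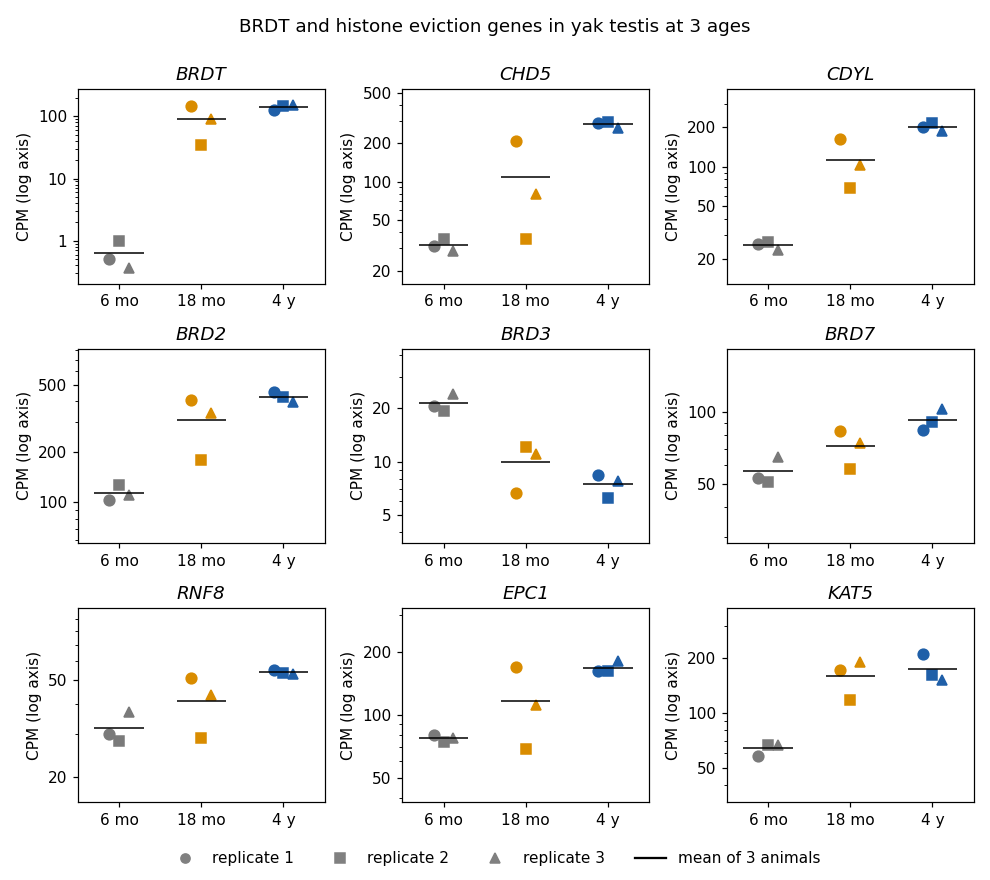
CPM of the 9 member genes in each library on log axes, by age (6 months, 18 months, 4 years); symbols are replicates 1 to 3 and lines are means of 3 animals. At 18 months replicate 2 is the library nearest to the 6-month level for every gene shown, and BRD3 alone is lower at 4 years than at 6 months.

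Across the whole group, 8 members rose and BRD3 fell at 4 years against 6 months, and the libraries of these ages did not overlap in CPM for any of the 9. Such calls were common in this comparison, since 73.9% of all tested genes passed (36.7% higher, 37.2% lower) and 83% did not overlap (41% higher, 42% lower). The members' median log2 fold change was 1.45, and that of all tested genes was -0.06. At 18 months against 6 months 5 members rose, 1 fell and 3 did not pass, where 59.9% of all genes passed (32.7% higher, 27.1% lower). The 18-month and 6-month libraries did not overlap for 5 members, against 65.1% of all genes (33.3% higher, 31.8% lower). The members' median was 1.33 there, and that of all genes was 0.02.

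BRD2 (ENSBTAG00000011074), a BET protein of most tissues, had the highest mean level of the members at every age in FPKM. In 18-month replicate 2, however, BRD2 was at 61.8 FPKM and KAT5 at 64.6 FPKM. The values of BRD2 were 104, 127 and 110.2 CPM at 6 months, 405, 179 and 339.9 CPM at 18 months, and 453, 422 and 396 CPM at 4 years. All later libraries were above all 6-month libraries, with 18-month replicate 2 the lowest of them. The log2 fold change was 1.90 ± 0.29 at 4 years against 6 months (adjusted p = 0.000404) and 1.44 ± 0.28 at 18 months against 6 months (adjusted p = 0.00242).

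BRD3 (ENSBTAG00000010582), also a BET protein of most tissues, was the member that fell. It stood at 20.6, 19.2 and 24.1 CPM at 6 months, at 6.63, 12.1 and 11.1 CPM at 18 months, and at 8.48, 6.28 and 7.76 CPM at 4 years. The later libraries were all below the 6-month libraries. BRD3 changed by -1.51 ± 0.27 on the log2 scale at 4 years against 6 months (adjusted p = 0.00097) and by -1.10 ± 0.27 at 18 months against 6 months (adjusted p = 0.00682). The second call was lost when libraries were scaled by their totals alone (-0.67, adjusted p = 0.0736) and on the deposited FPKM values (-0.57, adjusted p = 0.0588).

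Among the 3 BET members the share of BRDT in FPKM was higher at the later ages, and BRD2 held the largest share at every age. BRDT made up 0.564%, 0.676% and 0.266% of the summed FPKM of BRDT, BRD2 and BRD3 in the 6-month libraries, 25.1%, 13.3% and 18.3% in the 18-month libraries, and 19.6%, 24.0% and 24.9% in the 4-year libraries. BRD2 held 81.6% to 86.0% of the sum at 6 months, 73.7%, 81.1% and 79.0% at 18 months, and 73.6% to 78.9% at 4 years. The summed FPKM itself was 31.0 to 37.6 at 6 months, 170.5, 76.2 and 143 at 18 months, and 172 to 178 at 4 years. The sum of the 3 genes was larger in every later library than in any 6-month library.

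The contrast of BRDT with its relatives was tested inside each library, where library scaling cancels. The log2 ratio of BRDT to BRD2 in CPM averaged -1.59 ± 0.24 at 4 years and -7.45 ± 0.54 at 6 months, a difference of 5.86. For BRDT to BRD3 the difference was 9.27, with ratios of 4.23 ± 0.33 at 4 years and -5.04 ± 0.81 at 6 months. Both ratios were higher in each of the 6 later libraries than in any 6-month library. An exact permutation test across the 3 ages, over 280 groupings of the 9 libraries, gave adjusted p = 0.0143 for each, adjusted over 4 ratios that include those of CHD5. The smallest p it can give is 0.00357, before adjustment.

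**Figure D2:**
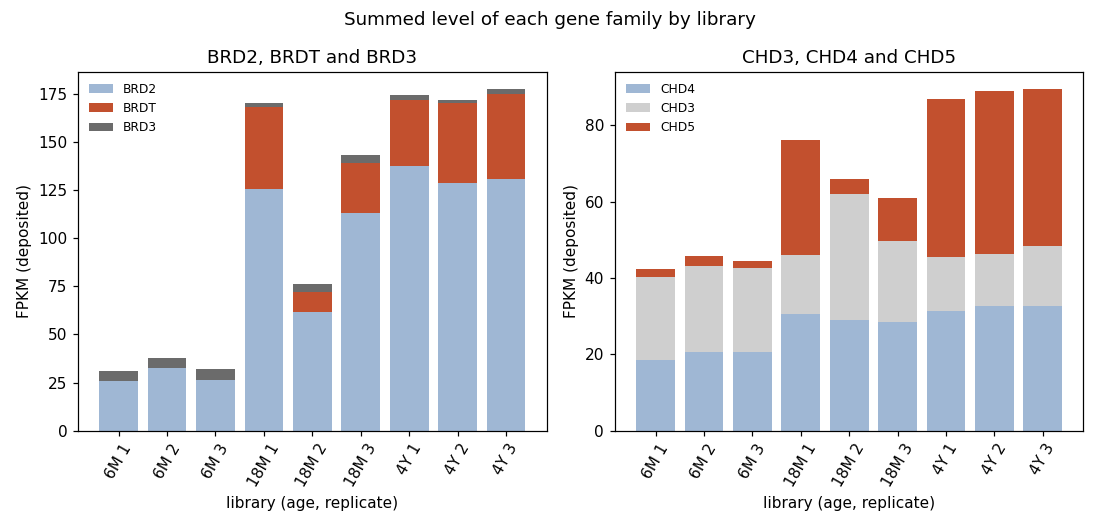
Deposited FPKM of BRD2, BRDT and BRD3 (left) and of CHD3, CHD4 and CHD5 (right), stacked for each library from 6 months to 4 years. BRDT is hardly visible at 6 months and holds 19.6% to 24.9% of the sum at 4 years, while CHD5 holds 46.0% to 47.8% of its family sum at 4 years and 5.81% of it in 18-month replicate 2.

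CHD3 (ENSBTAG00000014377), an ATPase of the NuRD complex like CHD4 and CHD5, fell where CHD5 rose. CHD3 stood at 106 ± 2.87 CPM at 4 years and 204 ± 5.78 CPM at 6 months (log2 -0.94 ± 0.24, adjusted p = 0.00583), a call lost with scaling by library totals alone (adjusted p = 0.0520) and on FPKM (adjusted p = 0.0658). At 18 months against 6 months its log2 value of -0.35 ± 0.23 did not pass (adjusted p = 0.219). CHD4 (ENSBTAG00000014734), the main NuRD ATPase of most cells, had a log2 fold change of 0.38 ± 0.15 at 4 years (adjusted p = 0.0469). That narrow call was lost without 18-month replicate 3 (log2 0.38, adjusted p = 0.0718), without any single 6-month or 4-year library (log2 0.32 to 0.43, adjusted p up to 0.157) and with no filter on low counts (log2 0.39, adjusted p = 0.0589).

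CHD5 made up 5.26%, 5.77% and 4.42% of the summed FPKM of CHD3, CHD4 and CHD5 at 6 months. Its share was 39.8%, 5.81% and 18.7% in 18-month replicates 1, 2 and 3, and 47.5%, 47.8% and 46.0% at 4 years. The share of CHD3 was 49.0% to 50.8% at 6 months, 20.1%, 50.3% and 34.8% at 18 months, and 15.6% to 17.5% at 4 years. In 18-month replicate 2 both shares were thus close to those at 6 months. These shares also depend on the transcript length that the deposited FPKM implies, which is described below. For CHD5 that length was 7200 bases at 4 years and 11618 bases at 6 months. It was 7778 and 7788 bases for CHD3, and 6835 and 6628 bases for CHD4. The log2 ratio of CHD5 to CHD3 in CPM was 1.40 ± 0.11 at 4 years and -2.70 ± 0.19 at 6 months, and that of CHD5 to CHD4 was 0.45 ± 0.04 at 4 years and -2.33 ± 0.22 at 6 months. Both differed across the ages in the exact permutation test (adjusted p = 0.0143 each). In 18-month replicate 2, however, the ratios were -2.64 to CHD3 and -2.23 to CHD4. These values lay within the 6-month ranges of -2.89 to -2.52 and -2.58 to -2.17.

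CDYL (ENSBTAG00000016397) is a chromodomain protein that in mice lowers histone crotonylation during spermatogenesis. It stood at 25.9, 26.5 and 23.2 CPM at 6 months, at 162, 68.7 and 104 CPM at 18 months, and at 201, 214 and 188 CPM at 4 years. The 3 ages did not overlap at all. The log2 fold change was 2.99 ± 0.30 at 4 years against 6 months (adjusted p = 6.91e-05) and 2.15 ± 0.29 at 18 months against 6 months (adjusted p = 0.000384).

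KAT5 (ENSBTAG00000005578), the acetyltransferase TIP60, and EPC1 (ENSBTAG00000001552), a scaffold subunit of its NuA4/TIP60 complex, both rose by 4 years. KAT5 stood at 58.1, 66.8 and 66.2 CPM at 6 months, at 171, 118 and 190.4 CPM at 18 months, and at 209, 161 and 152 CPM at 4 years, so the 2 later ages overlapped each other and neither overlapped 6 months. KAT5 rose by 1.45 ± 0.22 at 4 years (adjusted p = 0.000424) and by 1.33 ± 0.22 at 18 months (adjusted p = 0.00103), both on the log2 scale against 6 months. EPC1 stood at 79.8, 73.7 and 77.6 CPM at 6 months, at 169, 68.7 and 111 CPM at 18 months, and at 162, 161 and 179 CPM at 4 years. Here 18-month replicate 2 was below all 6-month libraries, whereas replicate 1 was within the 4-year range. EPC1 rose at 4 years against 6 months (log2 1.12 ± 0.29, adjusted p = 0.00649), and its 18-month value did not pass (0.59 ± 0.28, adjusted p = 0.0994).

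RNF8 (ENSBTAG00000008321), the ubiquitin ligase, and BRD7 (ENSBTAG00000021575), a bromodomain subunit of the PBAF form of the SWI/SNF remodeller, had the log2 fold changes of smallest absolute size among the members at 4 years against 6 months. RNF8 averaged 54.1 ± 1.15 CPM at 4 years and 31.7 ± 4.70 CPM at 6 months (log2 0.77 ± 0.22, adjusted p = 0.0118). BRD7 averaged 92.5 ± 9.47 CPM at 4 years and 56.3 ± 7.66 CPM at 6 months (log2 0.72 ± 0.19, adjusted p = 0.00768). At 18 months the log2 values against 6 months were 0.38 ± 0.22 for RNF8 (adjusted p = 0.170) and 0.35 ± 0.19 for BRD7 (adjusted p = 0.135), and neither passed. Without 18-month replicate 2, EPC1, RNF8 and BRD7 all passed at 18 months, at 0.98 (adjusted p = 0.000975), 0.70 (adjusted p = 0.00355) and 0.61 (adjusted p = 0.00772). Without that library 70.5% of all genes passed (38.3% higher, 32.2% lower), against 59.9% with it. EPC1, RNF8 and BRD7 also passed with scaling by library totals alone, at 0.97, 0.77 and 0.75, a scaling that raised the median of all genes by 0.40 in that comparison.

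**Figure D3:**
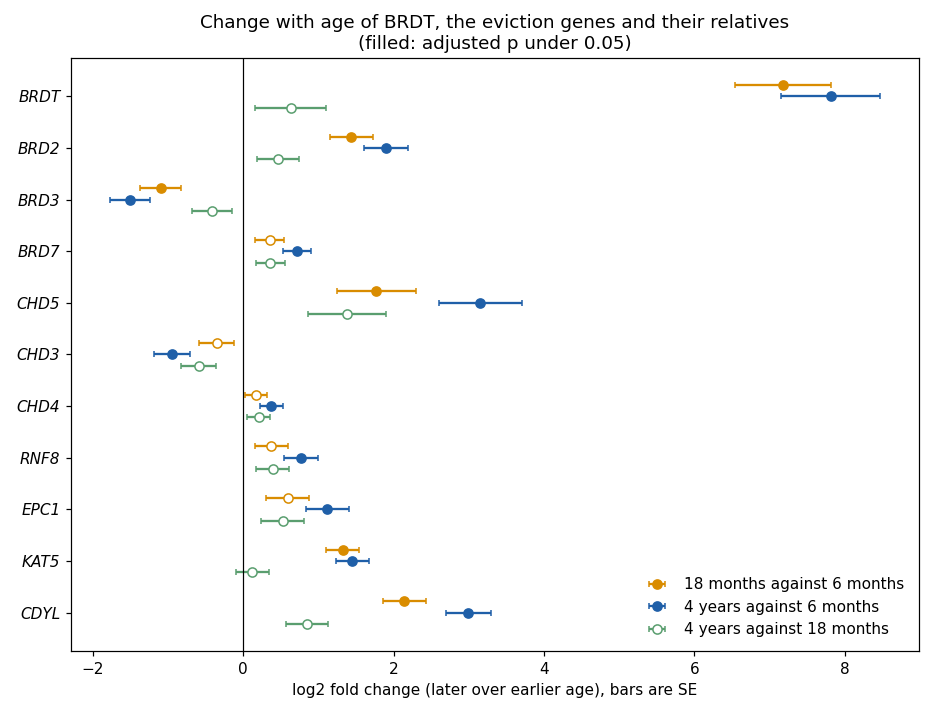
log2 fold changes with SE bars for the members and for CHD3 and CHD4 in the 3 age comparisons, from 3 animals per age; filled points have an adjusted p under 0.05. BRDT lies at 7.18 and 7.81 against 6 months, BRD3 and CHD3 lie left of 0, and no point of the comparison of 4 years with 18 months is filled.

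The comparison of 4 years with 18 months asked what still differed between these ages. In edgeR none of the 9 members passed, as was the case for all but 1 of the 16742 tested genes (0.00597%). At an unadjusted p under 0.05 in edgeR, 2 of the 9 members differed, CHD5 and CDYL, as did 3572 of the 16742 tested genes. DESeq2 called 942 genes but no member. CHD5 had a log2 fold change of 1.38 ± 0.51 (adjusted p = 0.192), CDYL of 0.85 ± 0.28 (adjusted p = 0.174) and BRDT of 0.63 ± 0.47 (adjusted p = 0.406). The 4-year libraries lay above all 18-month libraries for 4 members, BRD7, CHD5, RNF8 and CDYL, where 25.4% of all genes did not overlap (11.8% higher). The result depended on 18-month replicate 1. Without it, 5607 of 16988 tested genes passed (33%, with 13.2% higher and 19.8% lower). Of the 9 members 3 passed, a share like the 33% of all genes called in either direction. All 3 members rose, where 13.2% of all genes were called higher. They were CHD5 (2.28, adjusted p = 0.00619), CDYL (1.22, adjusted p = 0.00736) and EPC1 (0.90, adjusted p = 0.0178).

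Where each 18-month animal lay between the other ages differed from gene to gene. Positions were set by taking the mean CPM of 6-month libraries as 0% and that of 4-year libraries as 100%, on a linear scale. BRDT stood at 105.7%, 24.0% and 63.2% in 18-month replicates 1, 2 and 3. CHD5 stood at 70.6%, 1.53% and 19.5%. The medians of the 5281 genes (31.5% of those tested) that were called at least 2-fold higher at 4 years than at 6 months were 96.7%, 20.8% and 60.9%. BRDT was thus close to the median of those genes in each of these animals, and CHD5 was below it in all 3. Of the 5281 genes, 14.1%, 10.7% and 6.80% had a lower position than CHD5, and 65.3%, 55.3% and 52.3% a lower position than BRDT. These are descriptions of 3 animals, with no test.

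The germ cell marker lists had positions of their own. Spermatocyte markers had medians of 98.1%, 42.5% and 81.1% in 18-month replicates 1, 2 and 3, round spermatid markers of 95.6%, 6.65% and 37.7%, and elongating spermatid markers of 71.7%, 3.60% and 27.9%. Of these 3 medians, that of elongating spermatids was nearest to CHD5 in every animal, and CHD5 lay below it. Those of BRDT lay between the spermatocyte and round spermatid medians in replicates 2 and 3. KAT5 stood at 97.2%, 48.9% and 114.8%, BRD2 at 94.0%, 21.1% and 73.0%, and CDYL at 78.0%, 24.8% and 44.7%. EPC1 (102.2%, -9.25% and 37.3%), RNF8 (86.6%, -12.3% and 52.3%) and BRD7 (75.2%, 3.79% and 50.2%) were near or below the 6-month mean in replicate 2.

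**Figure D4:**
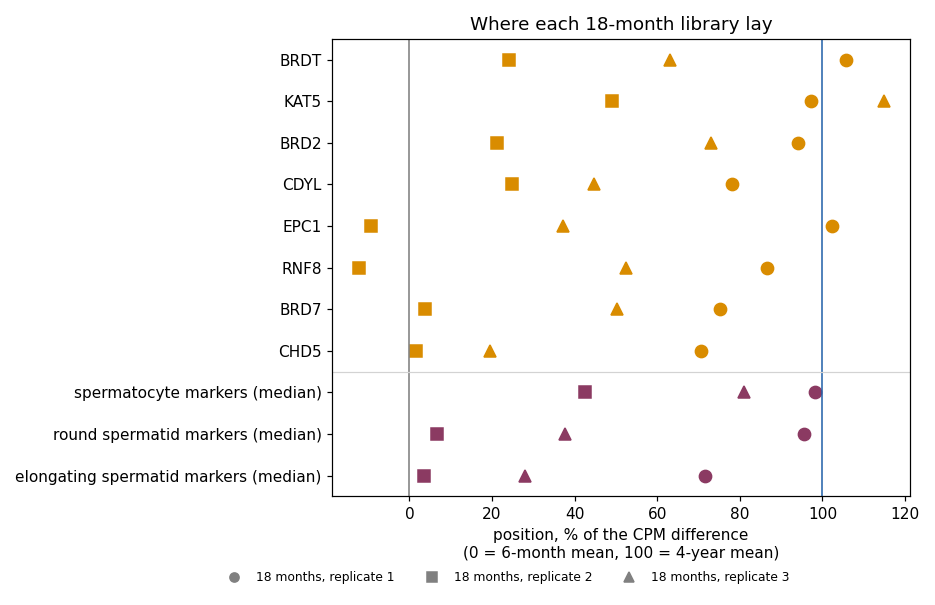
Position of each 18-month library in CPM, in percent of the way between the means at 6 months (0%) and 4 years (100%), for the 8 members that rose and for the medians of the spermatocyte (14), round spermatid (12) and elongating spermatid (12) markers. Replicate 2 is the lowest and replicate 1 the highest library in each line but that of KAT5, where replicate 3 is the highest.

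Levels of different members can be set side by side in FPKM. At 6 months BRD2 (28.1 ± 3.67 FPKM) and KAT5 (25.1 ± 1.99 FPKM) led and overlapped each other, followed by BRD7 (18.9 ± 2.06), EPC1 (14.7 ± 1.08) and RNF8 (14.2 ± 1.97), the last 2 overlapping. CDYL (7.48 ± 1.17), BRD3 (5.35 ± 0.44), CHD5 (2.28 ± 0.34) and BRDT (0.172 ± 0.084) came last, each apart from its neighbours. At 18 months BRD2 had the highest mean (100.2 ± 33.9 FPKM) and BRD3 the lowest (3.38 ± 1.12), and every neighbour in the order overlapped the next. At 4 years BRD2 (132.4 ± 4.68 FPKM) stood above CDYL (88.5 ± 3.64) and KAT5 (87.1 ± 12.8), which overlapped. EPC1 (48.9 ± 5.23) stood apart, and CHD5 (41.7 ± 0.727), BRDT (39.9 ± 5.18), BRD7 (37.5 ± 5.45) and RNF8 (30.9 ± 1.78) followed with each overlapping the next. BRD3 (2.41 ± 0.38) was the lowest.

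For CHD5, EPC1 and CDYL the deposited FPKM and the counts gave different sizes of change. Dividing a gene's count by its FPKM and the library total gives the transcript length that the FPKM implies, here after removing each library's median scale. The implied length of CHD5 was 11691, 11552 and 11611 bases at 6 months, 7251, 10782 and 7984 bases at 18 months, and 7188, 7247 and 7166 bases at 4 years. It was shorter in all 4-year libraries than in any 6-month library, and 18-month replicate 2 lay nearest to the 6-month values. At 4 years it was 7200 ± 42 bases, against 11618 ± 70 bases at 6 months, a change of -38.0%. Of 10701 genes with enough counts, 5.08% had a change as low or lower.

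The implied length of EPC1 was 3663 ± 2 bases at 4 years and 4404 ± 206 bases at 6 months (-16.8%), and that of CDYL was 2420 ± 27 bases at 4 years and 2839 ± 163 bases at 6 months (-14.8%). Of the 10701 genes, 13.4% had a change as low as that of EPC1 or lower, and 15.1% one as low as that of CDYL or lower. For BRD2, BRD3, RNF8 and KAT5 it changed by less than 2%, as it did for 52.5% of genes. BRD7 changed by 6.59%, and BRDT had too few counts at 6 months to judge. On the ratio of mean FPKM, CHD5 was 18.3-fold higher at 4 years than at 6 months, and on the ratio of mean CPM 8.91-fold. For CDYL these ratios were 11.8 and 7.97, and for EPC1 3.34 and 2.17. They also differ in how libraries were scaled, which alone gives KAT5 3.47-fold in FPKM and 2.73-fold in CPM. Whether the transcript forms in use differed by age was not tested.

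Back-splice reads, which mark circular RNAs (circRNAs), gave a second readout of the same loci. Reads were summed over all circRNAs of a gene, leaving out antisense ones, and BRD7, EPC1 and CDYL had enough to be tested among 3357 source genes. None of them passed in edgeR in any comparison, where 10.7% of source genes passed at 18 months against 6 months, 30.9% at 4 years against 6 months and 0.0298% at 4 years against 18 months. No member locus of the 3 had an unadjusted p under 0.05, the lowest being 0.0527 for BRD7 at 4 years against 18 months. DESeq2 was not run on circRNA reads.

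EPC1 had 58, 38 and 46 back-splice reads at 6 months, 23, 79 and 47 at 18 months, and 38, 22 and 14 at 4 years. The groups overlapped, and the log2 fold change was -0.77 ± 0.46 at 4 years against 6 months (adjusted p = 0.226). Per 1000 estimated counts of the EPC1 gene these reads were 30.7, 22.3 and 27.1 at 6 months, 4.50, 39.3 and 13.8 at 18 months, and 7.99, 4.04 and 3.09 at 4 years. On this relative scale the 4-year libraries lay below all 6-month libraries. The EPC1 gene counts that divide the reads were 1698 to 1888 at 6 months and 4533 to 5450 at 4 years. How many source genes were apart on this scale was not computed, so the separation has no background to be read against. Most reads came from a circRNA of 576 spliced bases made of annotated exons on the plus strand of chromosome 13 (33211181 to 33212874, coordinates as the file gives them).

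BRD7 had 48, 48 and 31 back-splice reads at 6 months, 14, 0 and 62 at 18 months, and 90, 57 and 53 at 4 years. The 4-year libraries were above the 6-month libraries, but the log2 fold change of 0.87 ± 0.84 did not pass (adjusted p = 0.453). Per 1000 estimated counts of the BRD7 gene the reads were 36.6, 18.5 and 20.4 at 4 years and 38.2, 41.0 and 21.8 at 6 months, so on this relative scale the groups overlapped. Nearly all came from a circRNA of 393 spliced bases of annotated exons on the minus strand of chromosome 18 (18731908 to 18733938). CDYL had 2, 8 and 2 reads at 6 months, 0, 15 and 8 at 18 months, and 14, 12 and 5 at 4 years (log2 1.52 ± 1.06 at 4 years against 6 months, adjusted p = 0.293). Per 1000 counts of the CDYL gene these few reads were 1.05 to 2.37 at 4 years and 3.27 to 13.1 at 6 months. The CDYL gene counts were 4744 to 7247 at 4 years and 508 to 612 at 6 months, and again no background was computed.

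**Figure D5:**
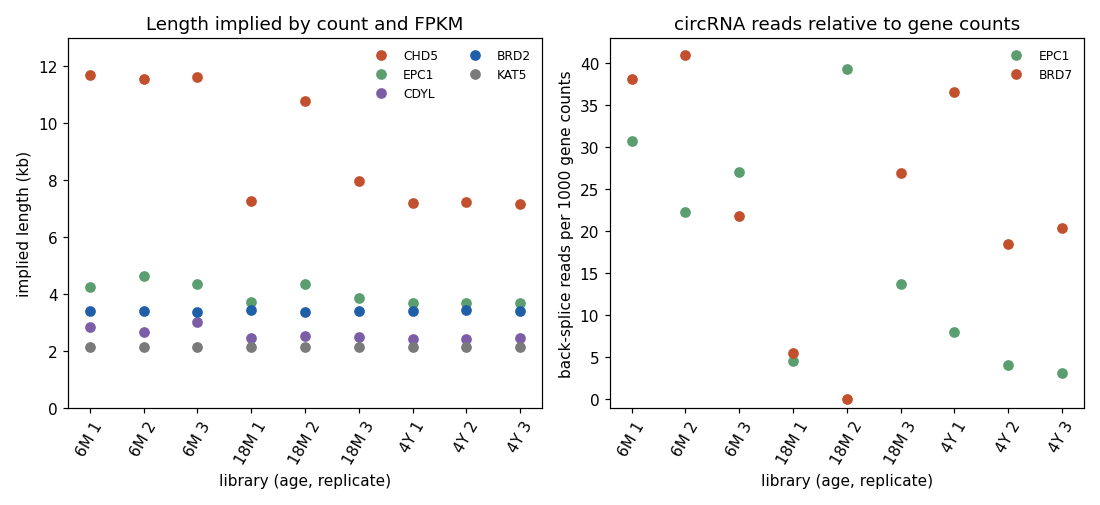
Left, transcript length implied by count and FPKM for CHD5, EPC1, CDYL, BRD2 and KAT5 in each library from 6 months to 4 years, in kb; right, back-splice reads of EPC1 and BRD7 per 1000 gene counts. CHD5 is at 7166 to 7247 bases at 4 years and at 11552 to 11691 bases at 6 months, and EPC1 circRNA reads are at 3.09 to 7.99 per 1000 at 4 years and at 22.3 to 30.7 per 1000 at 6 months.

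BRDT is named on a further identifier (ENSBTAG00000047443), which held no count in any library. Its circRNAs are listed under both identifiers, and together they had no reads at 6 months. The first identifier had 8 reads at 18 months and 18 at 4 years, and the further identifier 11 at 18 months and 20 at 4 years. CHD5 had 3 reads at 6 months, 10 at 18 months and 13 at 4 years, and RNF8 had 0, 4 and 7 at these ages. BRD2 had 11, 12 and 12 reads, BRD3 3, 0 and 0, and KAT5 0, 3 and 0. These loci were too sparse to test.

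The surroundings of the members were read from lists of their complexes and families, which also hold the members and relatives themselves. KAT5 and EPC1 are counted among NuA4/TIP60 genes, and CHD3, CHD4 and CHD5 among CHD remodellers and NuRD genes. BRDT, BRD2, BRD3 and BRD7 are counted among bromodomain genes, and BRD7 also among PBAF genes. RNF8 is counted among ubiquitination genes, KAT5 also among acetylation genes, and CDYL among its partners. The list counts are thus not separate from the member results. Of 18 measured NuA4/TIP60 genes, 13 rose, 2 fell and 3 did not pass at 4 years against 6 months (median log2 0.91, against -0.06 for all genes). Of all tested genes 73.9% passed there, 36.7% higher and 37.2% lower, and the counts of every list at these ages are to be read against these shares. VPS72, a histone chaperone subunit, rose by 2.64, and the ATPase RUVBL1 by 2.11, while the subunit MORF4L2 changed by -1.77. At 18 months against 6 months, 11 of the 18 rose and 2 fell (median 0.63, against 0.02 for all genes), where 32.7% of all genes were higher and 27.1% lower.

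Of 10 CHD remodellers, 3 rose, 6 fell and 1 did not pass at 4 years against 6 months (median -0.59). CHD4 and CHD5 were among those that rose, and CHD3 was among those that fell. CHD9 (-1.46), CHD2 (-1.36) and CHD1L (-1.26) fell with the smallest p values. Only 5 of the 10 passed without 6-month replicate 2, without 6-month replicate 3 or without 4-year replicate 2, and then 1 rose and 4 fell. The share of all tested genes that passed was also lower in these fits, at 67.5%, 67.5% and 65.9%. Of 14 NuRD genes, 6 rose and 4 fell (median 0.29 over the 14), a share of calls near the 73.9% of all tested genes. Among those called were the subunits GATAD2B (-1.86), MTA2 (-1.52) and MBD3 (1.64).

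The 23 bromodomain genes divided into 11 that rose, 8 that fell and 4 that did not pass (median 0.38), where 36.7% of all tested genes rose and 37.2% fell. BAZ1A, a subunit of ISWI remodellers, rose by 2.93 and BRD1, a subunit of acetyltransferase complexes, by 2.19. Of 17 PBAF and SWI/SNF genes, 6 rose and 6 fell (median 0.00), close to these shares of all genes in both directions. SMARCA4, the BRG1 ATPase, rose by 1.38, PHF10 by 1.76 and SMARCD2 by 0.97, while SMARCC2 changed by -1.61.

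Of 17 genes of histone ubiquitination and turnover in spermatids, 9 rose and 4 fell (median 0.77), and the 13 that passed were a share near the 73.9% of all tested genes. PHF7, a ubiquitin ligase needed for histone removal in mice, rose by 8.42 to 2857 ± 256 CPM at 4 years, against 8.34 ± 3.06 CPM at 6 months. The proteasome activator PSME4, which in mice serves the degradation of acetylated histones, rose by 2.69, and the ubiquitin ligase UBR2 changed by -1.36. PIWIL1, a piRNA-binding protein of the same list that also serves here as a spermatocyte marker, rose by 8.56.

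Of 19 genes of histone acetylation, 10 rose and 5 fell (median 0.40), and these 15 were again a share near the 73.9% of all genes that passed. Those with the smallest p included the acetyltransferase KAT7 (2.08) and the deacetylase HDAC11 (3.70), and also ACTL7A (11.05) and ACTL7B (9.86), which are actin-like proteins of spermatids. Among 10 CDYL partners, EZH2 (2.99) and SUZ12 (1.22) of the Polycomb complex PRC2 rose with CDYL itself, and the H3K9 methyltransferase EHMT1 changed by -0.91, a call lost with scaling by library totals alone (adjusted p = 0.0530) and on FPKM (adjusted p = 0.0827). The other 6 did not pass (median 0.01), so fewer of this list passed than the 73.9% of all genes. Without 18-month replicate 1 or replicate 2, 4 rose and 3 fell, where 76.4% and 78% of all tested genes passed.

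Of 18 genes of histone replacement, 16 rose and 2 fell, against 36.7% and 37.2% of all tested genes (median 7.52, unchanged with H2AB2 set to a bound). HSPA2, a chaperone of transition proteins in mice, rose by 3.90, HSPA4L by 7.29 and the kinase CAMK4, which phosphorylates protamine in mice, by 3.96. H2AB2, a short histone H2A variant, had no count at 6 months and 9.64 ± 2.53 CPM at 4 years. At 18 months against 6 months the same numbers passed in each direction, with a median of 6.17. Some of these lists share members with each other and with the marker lists.

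The profile most like that of BRDT over the 9 libraries was that of RTN1, a reticulon (Pearson r of log2 CPM 0.999), followed by ABCA3, DRC7, WDR97 and ANKRD31 (each 0.998). For CHD5 the nearest were TTLL3 (0.998), FAR1 (0.997), ZNF382, MEX3D and ASAP2 (0.997 each). The 9 points share the ages and the order of the 18-month animals, and 2832 of 16741 genes had r above 0.95 with BRDT and 1083 with CHD5. These values describe the libraries, and no test was made of them.

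The authors' deposited tables of differing genes were read for the same members. In the authors' deposited table of 4 years and 6 months, 8 of the 9 members are listed among 10565 genes (47.6% of the gene table). Each of the tables lists only genes that differ 2-fold or more at an FDR under 0.05, and BRD7 is not listed. The ratio of mean FPKM was 1.98 for BRD7 and 2.18 for RNF8, which is listed. The log2 fold changes in counts were 0.72 for BRD7 and 0.77 for RNF8 here, a different scale. In the authors' deposited table of 18 and 6 months, 5 are listed among 7668 genes (34.6%), namely BRDT, CDYL, KAT5, BRD2 and CHD5. None is listed in the authors' deposited table of 4 years and 18 months, which holds 247 genes (1.11%).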

How the data were processed

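The 9 ribosomal RNA-depleted yak testis libraries, 3 separate animals per age, were grouped by title; small RNA libraries were not used here. Per the submitters' processing notes, StringTie 1.3.4, HISAT2 2.1.0, fastp 0.18.0 and the build UMD3.1 were used, with roles not stated. What counted genes, called circRNAs and set their coordinates was not given in the sources used here. Per the file headers the deposited gene table holds estimated counts and FPKM, and the deposited circRNA table holds counts of back-splice reads. Some gene counts are not whole (3137 genes), and they were rounded. The authors' deposited comparison tables give group means in FPKM, log2 ratios and p-values with FDR.

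Counts were fitted with edgeR 4.0.16 (R 4.3.3): filterByExpr, TMM, glmQLFit and glmQLFTest, 1 model of 9 libraries, Benjamini-Hochberg adjustment over all tested features, calls at 0.05. Every adjusted p without another test named is from it. SE is the log2 fold change divided by the square root of F. For a symbol on more than 1 identifier the one with the most counts was used. Ratios use log2 CPM with a prior count of 2; 1 further ratio is not reported here. Alternatives were RLE and no scaling factors, no filter, DESeq2 1.42.0, left-out libraries, a replicate block, fits of 2 ages and, added after seeing the data, limma 3.58.1 on log2(FPKM + 1). The procedure was also run on simulated counts with few changed genes, a setting unlike these data, and no result here rests on it.

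The members and lists were chosen with earlier results of these data known. Named genes are the members, up to 4 genes per list with the smallest p at 4 years against 6 months, and the 5 profiles most like BRDT and CHD5. For length, values are given for each circRNA locus tested, not for every circRNA. Replicate numbers name different animals, and same-numbered libraries did not deviate together (r from -0.14 to 0.10 over 9 pairs).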

Additional observations from a re-analysis of the deposited data

How the results depend on the processing

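All 9 members kept their call and direction at 4 years against 6 months under all 16 alternatives. The 4 ratios, recomputed under 10 alternatives, stayed under 0.05 (adjusted exact permutation p 0.00714 to 0.0429). Genes called at 4 years against 18 months (1) numbered 0 in a fit of these ages alone, 942 with DESeq2, 5 with limma on FPKM, and 0 to 5607 with a library left out. Members called there were 0 to 3 with a library left out. CircRNA source genes called at 18 months against 6 months (358) numbered 544 with no filter, 236 with the replicate block and 138 to 610 with a library left out, and at 4 years against 18 months (1) they numbered 107, 0 and 0 to 42. The replicate block called 9439, 11939 and 1 genes (18 months against 6 months, 4 years against 6 months, 4 years against 18 months), with 6, 9 and 0 members, and ended no member's call. The call of the relative CHD4 at 4 years against 6 months was lost with the block (adjusted p = 0.0910).

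Scaling by library totals alone raised the share of higher calls at 18 months against 6 months to 72.6%, against 54.7% with TMM, and shifted the median of all genes by 0.40 there and by 0.29 at 4 years against 6 months; RLE shifted them by 0.10 and 0.18. Values of genes that were not called changed sign. CHD3 at 18 months against 6 months became 0.069 by library totals and 0.011 with limma. KAT5 at 4 years against 18 months ranged from -0.050 (without 18-month replicate 2) to 0.27. CDYL circRNA at 18 months against 6 months ranged from -0.19 (without 18-month replicate 2) to 1.44. The causes were not tested. CircRNA reads of single loci were 0 to 90 per library, which limits their comparisons.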
